A study of Mus musculus with 2 samples.

Results

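The loci described here are the mouse microRNA (miRNA) genes of the lettered Mir297, Mir466, Mir467 and Mir669 series. They were selected by symbol, and 67 of the 1973 miRNA loci with counts matched. Of these, 58 lie inside the gene Sfmbt2 on chromosome 2 and 9 lie elsewhere in the genome, so that the set is wider than the Sfmbt2 intron. Small RNA came from B6NCrl mouse embryos at gestation day 14.5, whose midbrains formed 1 group of 2 biological replicates, and the labels name no treatment or altered allele. Per the labels a replicate is 1 midbrain with its own collection day, yet the sex is given as pooled, and both carry the same pup number, pregnancy number and donor identifier, so that only that day tells them apart. The series holds no second condition, and no test between conditions was possible.

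A miRNA gene is transcribed within a longer RNA that holds a hairpin, from which a short mature RNA is cut and loaded into a silencing complex. The mature RNA pairs with target messenger RNAs mainly through its seed, bases 2 to 8 from the 5′ end, so that loci with the same seed can act on overlapping targets. Sfmbt2 encodes a Polycomb group protein and is an imprinted gene, expressed from the paternal copy in extraembryonic tissues. Its large intronic miRNA cluster is known from rodents and is best known for expression in placenta and in embryonic stem cells.

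The mature sequences at hand show repeated letters. RefSeq mature sequences on build GRCm38.p6 were matched for 8 of the 67 loci, all outside Sfmbt2, and are given 5′ to 3′ with the seed in capitals, to show the repeated letters that these series have in common.
mmu-miR-466q (chr3:28419988-28420007, plus strand): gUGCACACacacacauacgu
mmu-miR-466k (chr3:85467396-85467418, plus strand): uGUGUGUGuacauguacauguga
mmu-miR-466j (chr10:60960802-60960824, plus strand): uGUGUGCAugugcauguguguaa
mmu-miR-466i-3p (chr13:17747552-17747573, plus strand): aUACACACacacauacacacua
mmu-miR-467f (chr11:69635419-69635439, minus strand): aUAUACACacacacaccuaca
mmu-miR-467g (chr5:34732872-34732892, minus strand): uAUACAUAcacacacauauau
mmu-miR-467h (chr9:115381898-115381919, plus strand): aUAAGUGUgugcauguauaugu
mmu-miR-669n (chr3:115979905-115979924, plus strand): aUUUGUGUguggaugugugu

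All 8 mature sequences hold 6 bases in a row that alternate between U and G or between A and C (UGUGUG or ACACAC, each read from either of its bases), against 2.82% of the 1738 mature sequences in the RefSeq table. The longest stretch that alternates between any 2 bases ran from 7 nt in miR-466j and miR-467h to 12 nt in miR-466q and miR-467f. The median over the 8 was 9 nt, against 4 nt over all mature sequences of the table. In the GENCODE hairpins, read as RNA on the annotated strand, 67 of 67 members hold such a 6-base repeat, and so do 19.2% of the other 1827 miRNA hairpins with counts. Over hairpins the median longest alternating stretch was 14 nt for the 9 members outside Sfmbt2 and 9 nt for the 58 inside. It was 8.5 nt for the 10 members detected below and 5 nt for the other 1827 hairpins.

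The 8 seeds differ from one another, also between loci of the same series. Their letters nevertheless recur in the Sfmbt2 hairpins. AUACAUA, the seed of miR-467g, occurs in 49 of the 58 Sfmbt2 hairpins (84.5%) and in 6.65% of all hairpins with counts. UACACAC, the seed of miR-466i-3p, occurs in 37 of the 58 (63.8%) and in 7.81% of all, whereas UAAGUGU, the seed of miR-467h, occurs in 1 of the 58. These are matches of letters anywhere in the hairpin on its own strand, not mapped mature ends. In the RefSeq table no other locus shares 7 of the 8 seeds, and the seed of miR-467h is shared with mmu-miR-668-5p. No mature sequence was matched to a member inside Sfmbt2, so seeds shared with those loci could not be seen. The whole mature sequence of miR-467h occurs in 3 annotated hairpins, of which 1 is a member, while the other 7 sequences occur in a single hairpin each.

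The 58 loci inside Sfmbt2 stand in 1 intron and on the strand of their host. Sfmbt2 spans chr2:10370510-10595253 on the plus strand of mouse assembly mm10. The loci lie in intron 10 of the transcript Sfmbt2-201, which is intron 11 of Sfmbt2-205, from chr2:10461473 to 10523944 (62.5 kb). They reach from Mir466m at chr2:10466663 to Mir669h at chr2:10518279, a span of 51.6 kb, and 58 of 58 are on the plus strand. The middle of this span is a tandem array. From Mir467a-1 to Mir467a-10, 12 units of the Mir467a type (10 Mir467a loci, Mir467b and Gm25022) follow each other with starts 2413 to 2470 nt apart (median 2451 nt). This block runs from chr2:10476346 to 10503355 (27.0 kb) and holds 23 of the 58 loci. Its limits are the first and last Mir467a names in the annotation, and it was set apart after the counts had been seen. The spacing itself runs on past both limits. Mir467c starts before the block at chr2:10473931 and Mir467e after it at chr2:10505721, each within the same range of distances from the nearest unit. A further 12 lettered loci of GENCODE M21, Mir669a-4 to Mir669a-12 among them, were not analysed here.

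Sense reads, those that follow the strand of the annotated hairpin, numbered 7302633 in replicate 1 and 3966727 in replicate 2. Levels are CPM, counts scaled to a library total of 1000000 sense reads, so that 1 read equalled 0.137 CPM in replicate 1 and 0.252 CPM in replicate 2. A count of 0 allows a level of up to 0.411 CPM in the first and 0.756 CPM in the second, that of 3 reads. This limit covers counting error only, does not hold for loci with copies elsewhere, and takes no account of copying by PCR. Reads that mapped to several places made up 36.2% and 36.9% of all reads and were assigned to no locus. Of the 10 neural loci checked (Mir9, Mir124a, Mir128, Mir135b, Mir137 and Mir149), 8 were detected, with summed levels of 46468 and 52186 CPM in replicates 1 and 2. The 5 HOX-cluster loci, which mark hindbrain and trunk, summed to 970 and 1351 CPM, and the 3 blood loci to 687 and 167 CPM. The part of blood in the values below was not tested.

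Nearly all reads of the members fell on 10 loci inside Sfmbt2. With detection set at 10 sense reads or more in each replicate, 10 of the 67 members (14.9%) were detected, beside 20.1% of all loci. All 10 lie inside Sfmbt2, so that 10 of 58 loci were detected there (17.2%) and 0 of the 9 elsewhere. The shares of 14.9% and 17.2% are near that of all loci and are no result about the members. A read in either library was found at 22 of the 67 members (32.8%), beside 37.8% of all loci. Members took 35237 sense reads in replicate 1, or 0.483% of the library (0.478 to 0.488), and 18694 in replicate 2, or 0.471% (0.465 to 0.478), with 95% binomial intervals by the exact method of Clopper and Pearson. Their share was 0.477% ± 0.00796 (SD, n = 2). Loci inside Sfmbt2 held all but 1 of these reads in replicate 1 and all but 5 in replicate 2. The opposite strand had 0 reads at the 67 loci in both libraries.

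Among reads assigned to a single locus the Mir467 series led, with 80.6% ± 0.556 of the members' reads (SD, n = 2), although 3 of its 17 loci were detected. Reads that fit several loci are missing from the shares of all series, and the SD does not measure that loss. Mir467d (chr2:10507630-10507714) had 12128 sense reads in replicate 1 and 6605 in replicate 2, which are 1661 and 1665 CPM. It alone held 34.9% ± 0.646 of the members' reads and stood in place 75 of the 1973 loci by mean CPM. Mir467e (chr2:10505721-10505807) had 8984 and 5064 reads, or 1230 and 1277 CPM. Mir467c (chr2:10473931-10474027) had 7149 and 3472 reads, or 979 and 875 CPM. The order of these 3 was the same in both libraries and their ranges did not overlap. Mir467d exceeded Mir467e 1.33 ± 0.0323-fold and Mir467e exceeded Mir467c 1.36 ± 0.143-fold (mean ratio within a library ± SD, n = 2). Of the other 14 Mir467 loci, Mir467b had 2 reads in replicate 1 and 0 in replicate 2, and 13 had no read, among them the 10 Mir467a loci and the 3 outside Sfmbt2.

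The Mir669 series held 18.9% ± 0.616 of the members' reads, with 5 of 21 loci detected. Mir669o (chr2:10514300-10514395) had 3065 and 1549 reads in replicates 1 and 2, or 420 and 390 CPM. Mir669l (chr2:10468971-10469068) had 2587 and 1279 reads, or 354 and 322 CPM. Mir669o stood above Mir669l in both libraries, 1.20 ± 0.0186-fold. Mir669c (chr2:10509296-10509404) had 822 and 434 reads, or 113 and 109 CPM, and Mir669e (chr2:10467495-10467613) had 258 and 144 reads, or 35.3 and 36.3 CPM. Mir669h (chr2:10518155-10518279) was lowest of the 5, with 68 and 38 reads, or 9.31 and 9.58 CPM. The levels in this series therefore spread widely, with Mir669o 42.9 ± 3.05-fold above Mir669h. Mir669f had 6 and 4 reads, and 15 loci had no read.

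The Mir466 series, with 24 loci the most numerous, and the Mir297 series, with 5, had 1 detected locus each, and 14 and 3 of their loci had no read. Mir466n (chr2:10513741-10513834) had 136 and 69 reads in replicates 1 and 2, or 18.6 and 17.4 CPM, and was the only Mir466 locus detected. Mir467d exceeded it 92.5 ± 4.63-fold. Mir297a-2 (chr2:10472254-10472343) had 19 and 17 reads, or 2.60 and 4.29 CPM, and was the only Mir297 locus detected. The Mir466 series as a whole took 0.441% ± 0.0341 of the members' reads and the Mir297 series 0.0779% ± 0.0259. Below the detection limit, Mir466b-3 had 3 and 7 reads, Mir466h 2 in each library, Mir297b 2 and 1, and Mir466g, Mir466l and Mir466p 1 in each. Mir466d and Mir466o had a read in replicate 1 only, and Mir466f-2 in replicate 2 only.

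**Figure D1:**
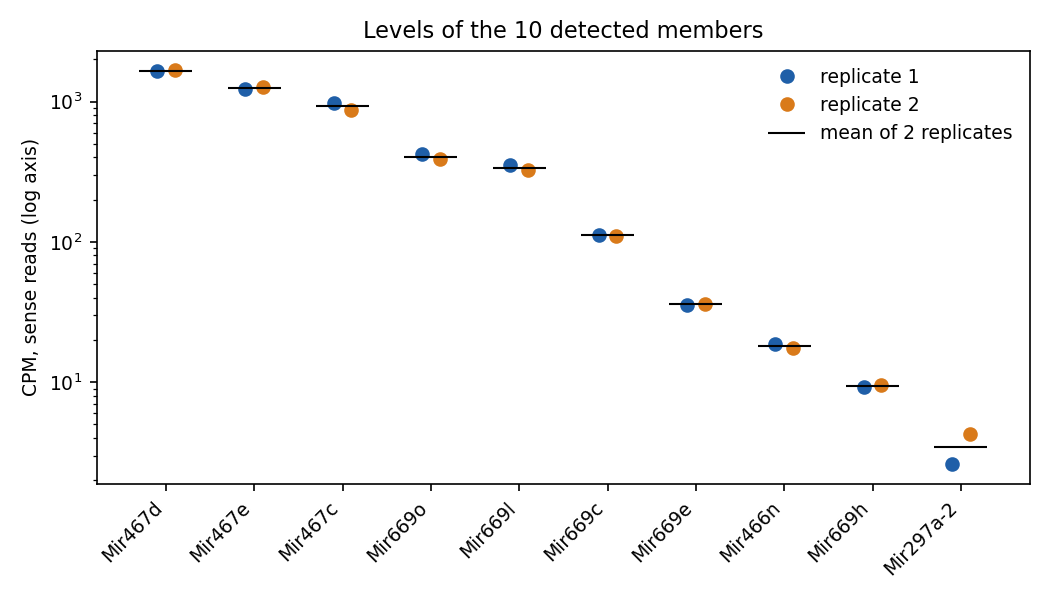
Sense CPM on a log axis for the 10 detected members, with a point for each replicate and a line at the mean. Levels fall from 1663 CPM at Mir467d to 3.44 CPM at Mir297a-2, and the points of neighbouring loci do not overlap.

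Across the 10 detected members each locus differed from the next in order by more than the larger of their SDs, and the ranges of neighbours overlapped in 0 of 9 pairs. With 2 replicates these SDs are themselves uncertain. The means were 1663 ± 3.06 CPM for Mir467d, 1253 ± 32.8 for Mir467e, 927 ± 73.3 for Mir467c, 405 ± 20.7 for Mir669o and 338 ± 22.5 for Mir669l. The lower end comprised Mir669c at 111 ± 2.23 CPM, Mir669e at 35.8 ± 0.687, Mir466n at 18.01 ± 0.869, Mir669h at 9.45 ± 0.189 and Mir297a-2 at 3.44 ± 1.19. Hairpins of the 10 measure 85 to 125 nt, and the order was the same when CPM were divided by hairpin length. The median log2(CPM + 1) of the detected members was 7.61, beside 6.91 for all 397 detected loci.

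Reads came from both sides of the tandem block as limited by name, and hardly any from within it. Mir467c and Mir467e, which continue its spacing on either side, count as outside, so the contrast depends on these limits. The 23 members in the tandem block had 2 sense reads in replicate 1, both at Mir467b, and 0 in replicate 2. The 15 members before the block had 10020 and 4917 reads, with Mir669e, Mir669l, Mir297a-2 and Mir467c detected. The 20 members after it had 25214 and 13772 reads, with Mir467e, Mir467d, Mir669c, Mir466n, Mir669o and Mir669h detected. Between Mir467c, 7.27 kb from the first member, and Mir467e, 39.1 kb from it, no member was detected. The 49 other miRNA loci inside Sfmbt2, which the symbol pattern leaves out, had 29 and 15 reads together, and 0 of the 49 were detected. Gm22925 had 6 and 4 of these reads, Mir466 5 and 4, Gm22072 5 and 3, and Gm25263 6 and 2. Of these 49 loci 32 lie in the block, where Gm25451 had 1 read in each library and the other 31 had none. All 32 share a stretch of 20 nt with another miRNA hairpin, which limits their counts as described below.

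**Figure D2:**
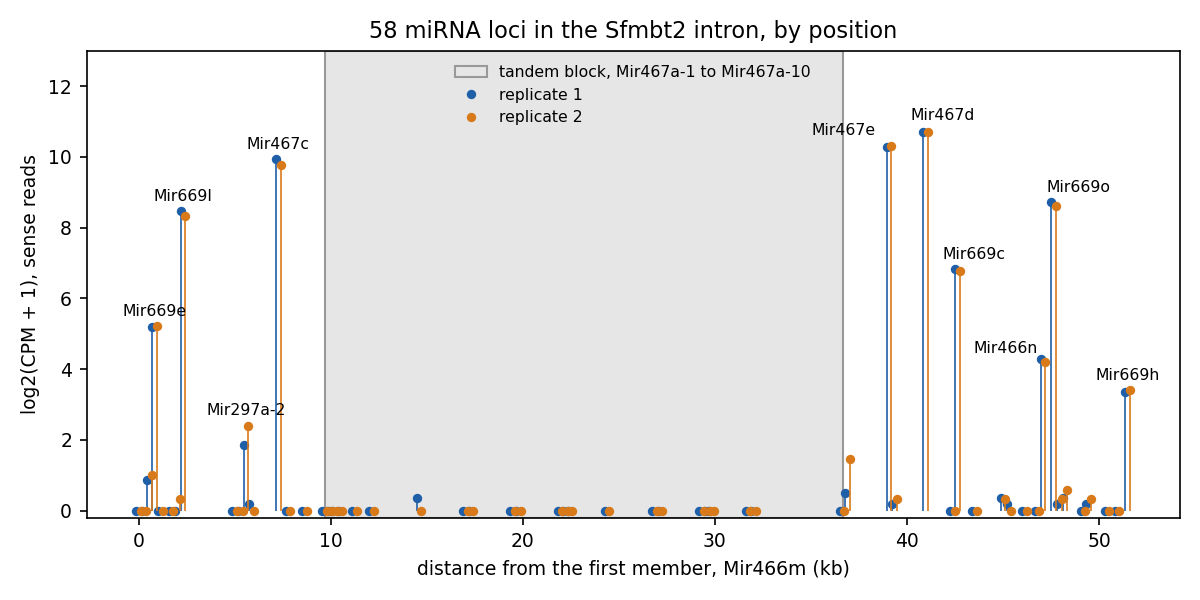
Level as log2(CPM + 1) of the 58 members inside Sfmbt2 against distance in kb from the first member, with a point and stem for each replicate and the tandem block shaded. The detected loci stand on both sides of the block, while the 23 loci within it are at or near 0.

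The loci with no sequence of their own lay mostly in the block. The tables keep multimapping reads in a line of their own, so a locus's count depends on reads that fit it alone. At 65 of the 67 members a stretch of 20 nt or more recurred exactly in another, non-overlapping miRNA hairpin; the exceptions were Mir466g and Mir669n. Over all loci it did at 929 of the 1894 with a hairpin sequence. All 10 detected members are among the 65, so none of their counts is free of this limit. In the block, 19 of the 23 loci had no 20-nt window of their own, and outside the block 1 of 35 Sfmbt2 loci, Mir669a-2, had none. Among the 32 other miRNA loci in the block the median share of windows of their own was 0%, so the same limit holds there. The 20 members without a window of their own had 0 reads in both libraries. Of the 47 members with such a window 10 were detected (21.3%). Over all loci the figures were 1 detected of 258 without a window of their own (0.388%) and 396 of 1636 with one (24.2%).

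The extreme case is the Mir467a series, which by its name is a set of gene copies for 1 mature miRNA. Mir467a-2, Mir467a-4, Mir467a-5, Mir467a-7, Mir467a-8, Mir467a-9 and Gm25022 have the same 83-nt hairpin letter for letter, and Mir467a-3, Mir467a-6 and Mir467a-10 share another. In all, 17 members have a hairpin identical to that of another locus, and these had 0 reads. The 33 members whose names end in a copy number include all 20 without a window of their own, so they are no separate observation. Of the 33, 1 was detected, Mir297a-2, and together they had 22 and 25 reads in replicates 1 and 2. The 34 members with no copy number had 9 detected loci and 35215 and 18669 reads. For these copies a low level and the loss of reads that fit several places cannot be told apart from these tables.

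Of the 38 loci inside Sfmbt2 with a window of their own, 21 had a read and 10 were detected, beside 0 of the 20 without one. Not every locus with such a window was detected. In the detected members 32.4% to 95% of the 20-nt windows were found in no other miRNA hairpin, with 37.9% at Mir467d and 95% at Mir669e, so that the highest locus had less sequence of its own than 8 of the other 9. Another 16 loci inside Sfmbt2 reached 32.4% and were not detected. Among them Mir466g, with every window its own, had 1 read in each library, Mir466h with 93.5% had 2 in each, and Mir669b with 87.2% had 0. Across the 58 loci Spearman's rho between the share of own windows and mean CPM was 0.671. It is given as a description, because the loci share libraries and descent and many are tied at 0. Reads that fit several places were assigned to no locus, which limits counts at the 20 loci without such a window, whatever their level. The limit is not absolute, since of 238 non-members without one 3 had a read and 1 was detected. Windows were counted over the whole hairpin, and mature positions of these loci were not known, so a shared mature arm could not be seen. Copies outside annotated miRNA hairpins were not searched.

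**Figure D3:**
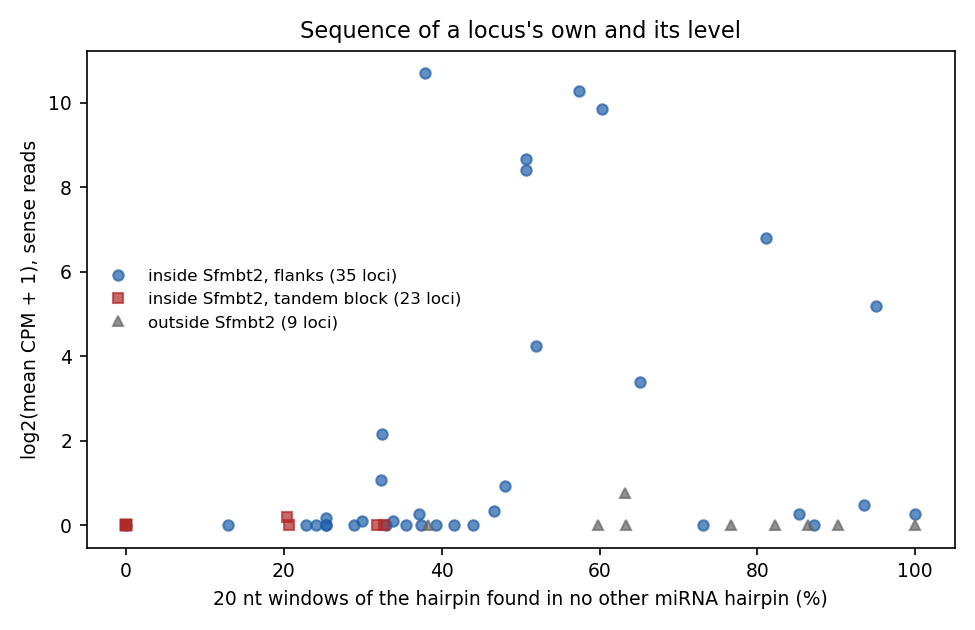
Level as log2(mean CPM + 1) of the 67 members against the percentage of 20-nt windows found in no other miRNA hairpin, with symbols for the flanks of the cluster (35 loci), the tandem block (23) and loci outside Sfmbt2 (9). Loci at 0% have no reads, and loci with much sequence of their own appear both with and without reads.

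Outside Sfmbt2 the members had few reads or none. Mir466q, which lies within the span of Tnik on chromosome 3 and on its strand, had 1 read in replicate 1 and 5 in replicate 2. The other 8, namely Mir466f-4, Mir466i, Mir466j, Mir466k, Mir467f, Mir467g, Mir467h and Mir669n, had 0 reads in both. Of the 9 loci, 5 overlap a protein-coding gene on the opposite strand only, such as Mir467f with Fxr2 on chromosome 11 and Mir466i with Cdk13 on chromosome 13, and 3 overlap no other gene. All 9 had a window of their own among miRNA hairpins, from 38.2% at Mir467h to 100% at Mir669n. Repeats elsewhere in the genome were not examined.

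The replicates differed little at the detected members. In log2(replicate 2/replicate 1) after TMM scaling of the library totals, the 10 loci ran from -0.25 at Mir467c to 0.63 at Mir297a-2, with a median of -0.11 and an SD of 0.25. The 397 detected loci of all kinds had a median of 0.01 and an SD of 0.52. Past 1.5-fold stood 1 of the 10 members, Mir297a-2, beside 16.6% of all detected loci. Its exact 95% interval for counting error, -0.40 to 1.65, spans 0, and with it 6 of the 10 intervals do. At Mir467d the value was -0.09 (-0.13 to -0.04) and at Mir467c -0.25 (-0.31 to -0.19). The loci below 0 were 9 of 10 with TMM and with DESeq2 size factors, but 5 of 10 with plain totals, so no direction is given to the set. The blood loci had 687 CPM in replicate 1 and 167 CPM in replicate 2, and the part of blood in the members' reads was not tested.

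**Figure D4:**
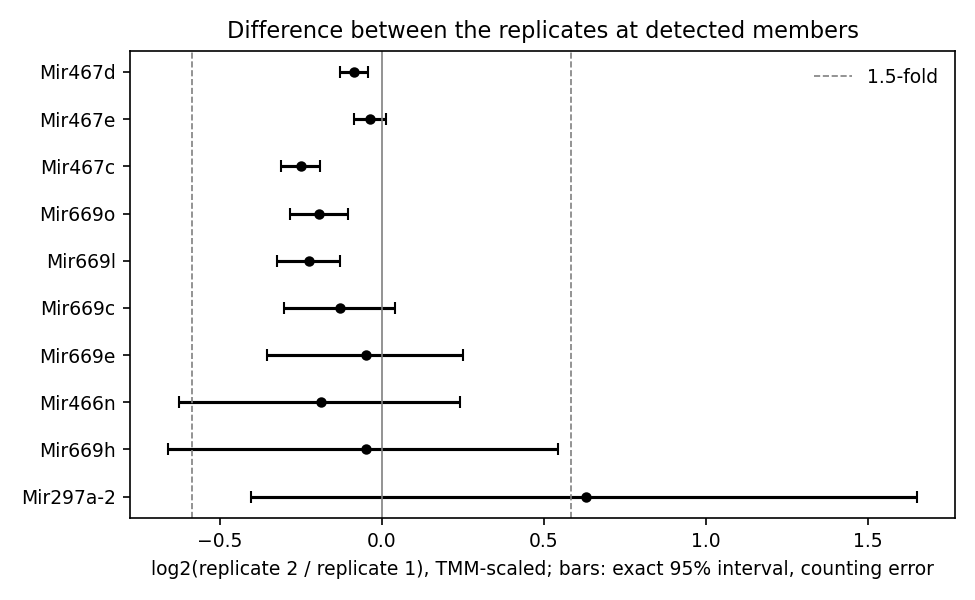
Log2 ratio of replicate 2 to replicate 1 after TMM scaling for the 10 detected members, with exact 95% intervals for counting error and dashed lines at 1.5-fold. The points of the 9 loci other than Mir297a-2 lie between -0.25 and -0.04, inside the dashed lines.

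Other clusters show where the Sfmbt2 loci stood among groups of neighbouring miRNAs, as levels with no test. The mir-290 to mir-295 cluster, known from early embryonic cells and, like the Sfmbt2 cluster, from placenta, had 2 of 7 loci detected and 207 and 80 reads in replicates 1 and 2. The X-linked cluster from Mir463 to Mir883, known from testis, had 0 of 18 loci detected and 26 and 10 reads. The miRNAs inside Rian and Mirg, imprinted noncoding genes expressed in brain, had 15 of 18 loci detected and 1.98% ± 0.262 of the sense reads, beside 0.477% ± 0.00796 for the members. A 20-nt stretch shared with another hairpin was found at 2 of the 7, 5 of the 18 and 0 of the 18 loci of these clusters, and at 65 of the 67 members.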

How the data were processed

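The authors deposited 1 table of raw read counts per library, with columns for both strands, the annotated (sense) strand and the opposite strand of each miRNA gene. Per the text deposited with each library, assembly mm10 and annotation M4 were used. Which aligner and counter were run was not given in the sources used here. In each table the first 4 lines are read classes outside genes and were left out of the totals. Unmapped reads made up 19.0% and 18.5% of all reads in replicates 1 and 2, and reads outside miRNA genes 3.10% and 2.17%.

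Gene identifiers were looked up in GENCODE M21 (also mm10) for symbols, positions and hairpins, with 1894 of 1973 found, and RefSeq gave mature sequences. CPM were sense counts scaled by the total over genes, and log2 values used a pseudocount of 1 CPM. Ratios between replicates used edgeR 4.0.16 (TMM), with DESeq2 1.42.0 size factors as an alternative. Shared stretches were exact matches of 20 nt on either strand against 2202 hairpins. The copy search was tested on simulated random sequences, which were not built with the repeats of the member hairpins. The intervals were tested on simulated counts with counting error only. Samples formed 1 group, so no differential test was run. If both libraries came from the same animal, the SDs measure technical spread only.

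All detected members were named, and the others by their reads. The members and lists were chosen with earlier results of these data known. Alternatives covered the detection limit, strand, scaling, pseudocount, match length and each replicate left out.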

Additional observations from a re-analysis of the deposited data

How the results depend on the processing

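The count of 10 detected members, all inside Sfmbt2, ran from 7 with a minimum of 100 reads to 12 with a minimum of 3, and was 10 under the 5 other settings run, each replicate left out included; the count outside Sfmbt2 was 0 under all 7. The members' share of reads was 0.467% with both strands counted and 0.607% without the most abundant of all loci in the total, against 0.477%, since both change the denominator; with 1 replicate it was 0.471% to 0.483%. The median log2 ratio between the replicates was -0.02 with plain totals, which moved the median of all detected loci to 0.09, and -0.08 with DESeq2 size factors. The median log2 level stayed within its SD under the settings run, and the count of detected members with a copy was 10 at each match length. Levels of the 10 named loci moved by at most 2.05% with both strands counted or TMM scaling. With both strands counted, the move exceeded 1 SD at Mir467d, Mir669c, Mir669e and Mir669h. Mir467d then had 1629 CPM, against 1663 ± 3.06. No paired analysis was possible because the series has 1 group. Depth limits loci under 10 reads, where a difference between the libraries cannot be resolved.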
